A study of Rattus norvegicus with 6 samples.

Results

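The Cyp2c family was followed in the livers of 6 male Sprague-Dawley (Crl:CD(SD)) rats hybridised to single-colour Agilent arrays, 1 array per rat. A probe belonged to the family when its transcript accession matched a rat gene whose current symbol or synonym starts with Cyp2c and a digit. This gave 13 of the 61657 non-control probes and 7 of the 15284 genes with a matched probe, namely Cyp2c6v1, Cyp2c7, Cyp2c11, Cyp2c12, Cyp2c13, Cyp2c22 and Cyp2c23. The gene table lists 17 Cyp2c genes, 11 protein-coding and 6 pseudogenes. No probe was matched to the other 10, among them the protein-coding Cyp2c24, Cyp2c55, Cyp2c66 and Cyp2c7l1, and these were not analysed here.

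The controls were 3 rats given corn oil, the vehicle. The treated group was 3 rats given o-anthranilic acid (2-aminobenzoic acid, a product of tryptophan breakdown) at 1000 mg/kg/day. All 6 rats were males, bought at 5 weeks of age and kept on the same basal diet. The labels name both 9 weeks (treatment protocol) and 28 days (design text) and do not settle how long dosing lasted.

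The Cyp2c enzymes are haem proteins of the endoplasmic reticulum that oxidise drugs, steroids, retinoids and arachidonic acid. In rat liver, several are set by the sex-specific rhythm of growth hormone release. Pulsatile secretion in males maintains Cyp2c11, Cyp2c13 and Cyp2c22 through the transcription factor STAT5B, whereas the continuous pattern of females maintains Cyp2c12 and raises Cyp2c7. Cyp2c6v1 is a constitutive member that phenobarbital can induce, and Cyp2c23 is an arachidonic acid epoxygenase that is also prominent in kidney.

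All 17 Cyp2c genes lie on rat chromosome 1. In the GRCr8 gene order the female-specific Cyp2c12 and the male-specific Cyp2c13 are immediate neighbours, with 0 other protein-coding genes between them. Between Cyp2c22 and Cyp2c23 there are 51 other protein-coding genes. Sequence upstream of 1 RefSeq transcript start per gene is printed for 4 members, because they differ in their known dependence on growth hormone. For Cyp2c11 these are the 120 bases before that start. In the other 3 genes the same window lies within the annotated gene span for 120 bases (Cyp2c12), 99 bases (Cyp2c7) and 51 bases (Cyp2c13), so the start used is not the outermost one. For those 3 only the 30 bases around the HNF6 core are shown. They are RefSeq sequences on GRCr8, read 5′ to 3′ on the gene's strand. Capitals mark ATCAAT or its reverse complement ATTGAT, the core bound by HNF6 (Onecut1), and TATAAA, the TATA box.
Cyp2c11, male-specific, chr1:246175096-246175215, plus strand: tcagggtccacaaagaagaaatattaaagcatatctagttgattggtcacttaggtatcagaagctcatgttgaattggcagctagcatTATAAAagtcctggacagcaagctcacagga
Cyp2c13, male-specific, chr1:248787231-248787260, minus strand: aaatcacaaaatATTGATtctgatggtgca
Cyp2c12, female-specific, chr1:248677088-248677117, minus strand: caaaagcaaaatATTGATttttatggtgtt
Cyp2c7, female-predominant, chr1:247966311-247966340, plus strand: cctaatggactaATCAATgatgctcaaaga

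Over windows from 250 bases before to 50 bases after that start, promoter sequences were at hand for 6 of the 7 measured genes; Cyp2c6v1 had none. Aligned end to end, the 15 pairs of these windows shared between 47.2% and 67.4% of alignment columns, with a median of 51.4%. The highest value was that of Cyp2c12 and Cyp2c13. The HNF6 core (ATCAAT, both strands) was found in 3 of the 6, against 8.06% of all 33469 promoters. It started 71 bases before the transcript start in Cyp2c7, 71 and 243 bases before it in Cyp2c12, and 60 bases before it in Cyp2c13. The STAT5 motif TTCNNNGAA occurred in 0 of the 6 windows and in 8.87% of all promoters. The FOXA motif TGTTTAC occurred in 3 of 6 (3.78% of all), the nuclear receptor half-site AGGTCA in 3 of 6 (16.2%), TTGCNNAA for C/EBP in 2 of 6 (10.6%) and TATAAA in 5 of 6 (14.2%), each on either strand. Such matches describe the letters of these windows only.

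Between 53.3% and 58.0% of the probes on each array were well above background, and the 75th percentile of the signal ranged from 489 to 523. No spot was saturated. The brightest family probe reached 38.4% of the saturation value. The liver label was borne out by 8 of 8 hepatocyte markers, including albumin (Alb) and transthyretin (Ttr), and 1 of the 3 kidney tubule markers with a probe, Aqp2, was above background. Anthranilic acid replicate 3 lay on a second slide, while the other 5 arrays shared slide 1. On slide 1, row 1 held corn oil arrays only and row 2 treated arrays only, so treatment and row cannot be told apart there. Anthranilic acid replicate 3 lay in row 1 of slide 2. Lymphocyte markers gave differences above 0 in 5 of 5 tested genes, 0 past the threshold by limma and 4 at an unadjusted p under 0.05 (11.6% of all genes were), with a summed signal of 2.16 to 2.50 on corn oil arrays and 2.94 to 3.69 on treated arrays. Hepatocyte markers gave differences below 0 in 8 of 8 (0 past the threshold by limma, 1 at an unadjusted p under 0.05, beside the same 11.6%), with a summed signal of 4606 to 4748 against 4308 to 4413. Differences were also below 0 at 6 of 6 Kupffer cell and macrophage markers and at 3 of 3 endothelial markers. They were above 0 at 3 of 3 erythroid markers. Cholangiocyte markers (2 above 0, 1 below) and stellate and fibroblast markers (2 above, 3 below) were mixed. In these lists too, 0 genes passed by limma. Of all 10257 tested genes, each read by its probe with the highest mean signal, 0 passed either. The part of the cell types in the results was not tested. In whole liver, fewer cells of a type and less RNA per cell cannot be told apart. Signals throughout are multiples of the array's own 75th percentile.

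All 13 Cyp2c probes were well above background on all 6 arrays. As a description of brightness, the representatives (the probe of each gene with the highest mean signal) of 5 genes stood among the 497 brightest of 61657 probes on every array. That of Cyp2c7 ranked between 102 and 172, Cyp2c23 between 131 and 167, and Cyp2c13 between 135 and 259. Cyp2c11, the main androgen-hydroxylating P450 of male rat liver, ranked between 188 and 483, and Cyp2c6v1 between 209 and 497. On every array the representatives of Cyp2c7 and Cyp2c23 were brighter than those of Cyp2c11 and Cyp2c6v1, as a statement on these probes only. The Cyp2c7 representative was the brightest of 6 probes, whereas Cyp2c11 and Cyp2c23 had 1 probe each. The dimmest Cyp2c7 probes ranked between 468 and 1245 (A_64_P066206), 771 and 1869 (A_44_P698234), and 818 and 1952 (A_44_P484669). Cyp2c12 ranked between 2829 and 8594, and Cyp2c22 between 7779 and 10669. Probes differ in how strongly they bind and report, so a rank places a signal on its array and is not a ranking of transcript numbers. Cyp2c genes are close relatives and the probes were not aligned to them here, so the share of a signal that comes from a related copy was not tested.

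**Figure D1:**
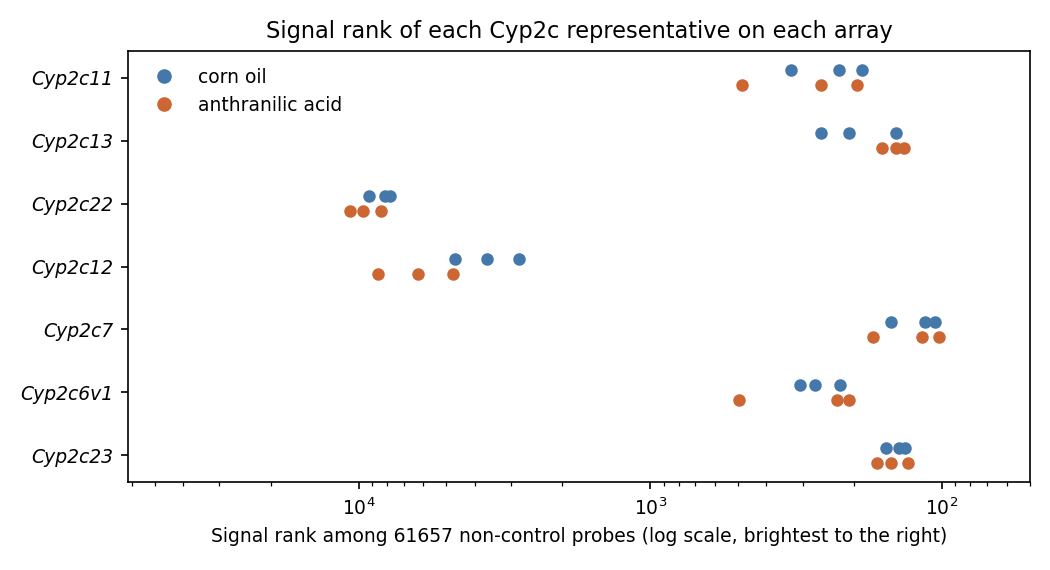
Signal rank of each Cyp2c representative among 61657 non-control probes (x axis, log scale, brightest to the right) for each of the 3 corn oil and 3 anthranilic acid arrays, 1 point per array. The points of 5 genes lie at rank 497 or brighter, and those of Cyp2c12 and Cyp2c22 at rank 2829 or dimmer.

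The comparison asked how repeated dosing with anthranilic acid changes these enzymes. No Cyp2c probe changed past the threshold. By limma over all 33428 tested probes, 0 of 13 had an adjusted p under 0.05, where 0.0329% of all tested probes did. At an unadjusted p under 0.05 there was 1 of 13, against a background of 12.2%, or 6.52% counting lower values alone. The groups overlapped at all 13 probes, whereas 20.3% of all tested probes had groups that did not overlap (9.65% with the treated group lower). Log2 differences of treated from corn oil livers were below 0 at 12 probes and above 0 at 1. Of the 12, 6 were probes of Cyp2c7 and 2 of Cyp2c6v1, so they do not stand for 12 genes. Within slide 1 every probe of Cyp2c7 and Cyp2c6v1 was above 0. The median of the 13 differences was -0.06, beside 0.00077 over all tested probes. By representatives, 6 of 7 genes were below 0, and 48.0% of all 10257 tested genes were.

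**Figure D2:**
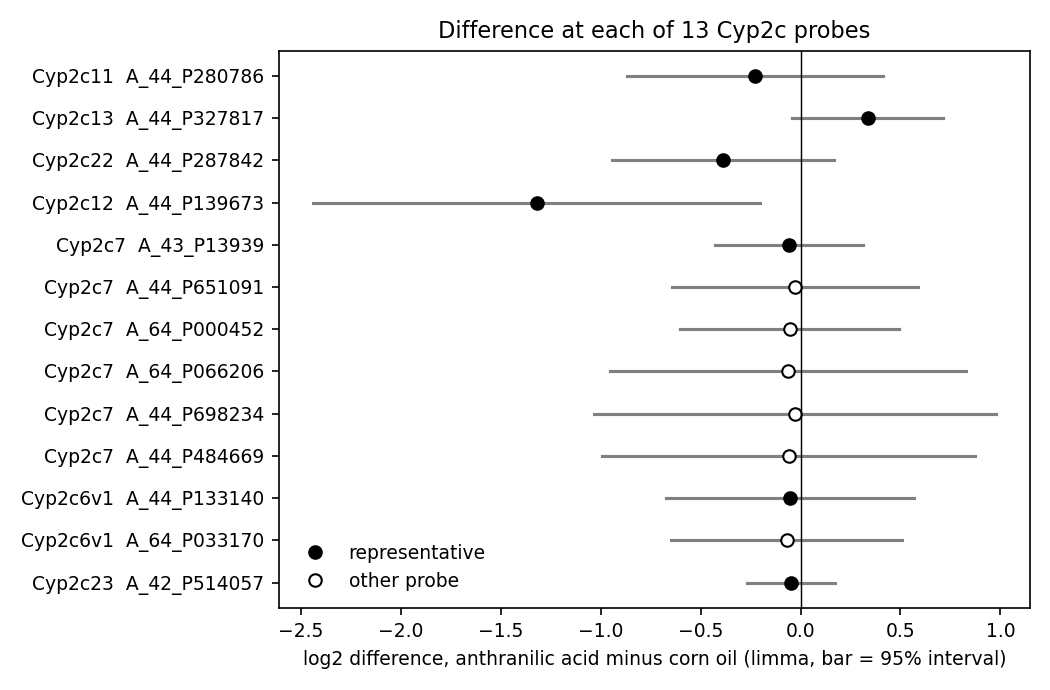
Log2 difference, anthranilic acid minus corn oil, at each of the 13 Cyp2c probes (3 arrays per group), with the 95% interval of the limma fit as a bar. Filled points are the gene representatives. The interval of Cyp2c12 runs from -2.44 to -0.20, and those of the other 12 probes include 0.

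Cyp2c12, a female-specific steroid sulphate hydroxylase, had the largest difference of the family. In these male livers it read 17.6, 11.9 and 25.7 in corn oil replicates 1, 2 and 3. The treated livers read 3.90, 7.31 and 12.1. All 3 treated livers lay below corn oil replicates 1 and 3, and treated replicate 3 lay just above corn oil replicate 2. The mean difference was -1.32 (SE 0.46, 3 arrays per group), or 2.50-fold lower, with a 95% interval from -2.44 to -0.20. It did not pass in limma (unadjusted p = 0.0275, adjusted p = 0.371). Its spread was wide, at 0.55 (SD, n = 3) on the log2 scale in corn oil and 0.82 (SD, n = 3) in treated livers. The pooled SD of 0.701 exceeded that of 97.1% of tested probes, whose median was 0.162. Without anthranilic acid replicate 1, the lowest liver, the difference was -0.89, and within slide 1 it was -1.72. No second Cyp2c12 probe stands beside it.

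**Figure D3:**
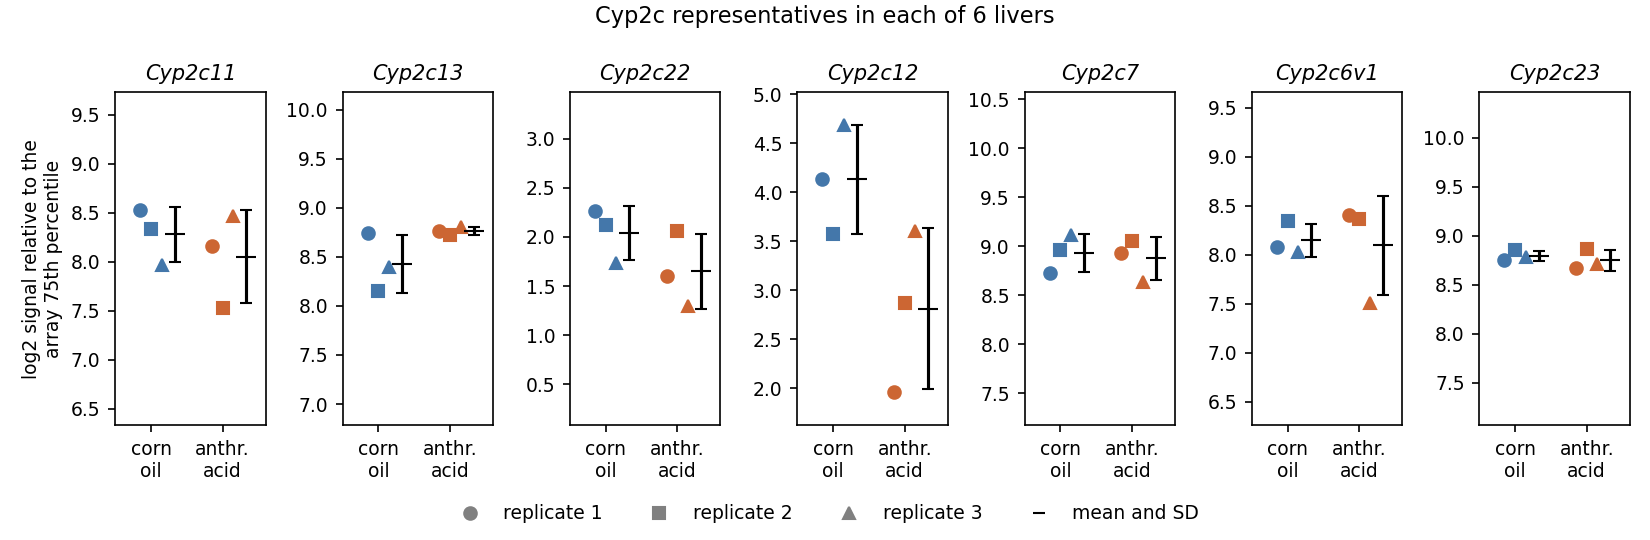
Log2 signal relative to the array's 75th percentile for the representative of each Cyp2c gene in 3 corn oil and 3 anthranilic acid livers, with the group mean and SD beside the points. Marker shape gives the replicate, and all panels span the same number of log2 units. Cyp2c12 is spread most widely and Cyp2c23 least, and the groups overlap in every panel.

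Among the male-specific members, Cyp2c11 hydroxylates testosterone and is the usual marker of the male growth hormone pattern. Its signals were 369, 323 and 251 in corn oil replicates 1 to 3 and 286, 185 and 353 in treated replicates 1 to 3. The treated livers spanned almost the whole range of the 6, with replicate 2 the lowest of all and replicate 3 second only to corn oil replicate 1. The difference was -0.23 (SE 0.26; 95% interval -0.87 to 0.41; limma adjusted p = 0.747). It turned to 0.033 without anthranilic acid replicate 2, and was -0.43 within slide 1.

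Cyp2c13 was the only member with a difference above 0. It read 429, 285 and 336 in corn oil livers and 436, 423 and 448 in treated livers. Treated livers were close together (SD 0.04 on the log2 scale, n = 3) and corn oil livers were not (SD 0.30, n = 3). Corn oil replicate 1 lay within the treated range. The difference was 0.34 (SE 0.16; 95% interval -0.04 to 0.71; limma adjusted p = 0.437), and every fit without 1 of the 6 arrays kept it between 0.20 and 0.49.

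Cyp2c22, a male-specific member that oxidises retinoic acid, gave dimmer signals of 4.79, 4.36 and 3.32 in corn oil livers. The treated livers read 3.03, 4.16 and 2.46, with treated replicate 2 inside the corn oil range and the other 2 below it. The difference was -0.39 (SE 0.23; 95% interval -0.94 to 0.17; limma adjusted p = 0.517). It was -0.21 within slide 1 and -0.59 without anthranilic acid replicate 2. The 3 male-specific members therefore gave 2 values below 0 and 1 above 0, none past the threshold.

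Cyp2c7, the female-predominant member that oxidises retinoic acid, was read by 6 probes. Its brightest, A_43_P13939, gave 423, 499 and 554 in corn oil livers and 490, 533 and 397 in treated livers. One of the dimmest, A_44_P484669, gave 56.8, 87.9 and 101 against 85.0, 117 and 44.9. In all 6 probes the lowest 2 livers were corn oil replicate 1 and anthranilic acid replicate 3. Each group thus held 1 low liver, and the 6 differences lay between -0.06 and -0.03. That of the brightest probe was -0.06 (SE 0.15; 95% interval -0.43 to 0.31; limma adjusted p = 0.899). Anthranilic acid replicate 3 was the only array on slide 2. Within slide 1 all 6 differences were above 0, from 0.06 to 0.35. None passed there, with adjusted p values between 0.695 and 0.889 by limma.

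The 6 Cyp2c7 probes differed in how far apart they placed the same livers. The highest liver over the lowest was 1.39-fold at A_43_P13939, 1.72-fold at A_44_P651091 and 1.67-fold at A_64_P000452. It was 2.42-fold at A_64_P066206, 2.57-fold at A_44_P698234 and 2.60-fold at A_44_P484669. The first 3 probes reached between 37.1% and 38.4% of the saturation value, and the last 3 between 7.50% and 10.9%. Pearson's r between the probes over the 6 arrays was 0.974 to 0.997 for the 15 pairs, as a description of probes that share RNA and array. The treatment shifts of the 5 other probes were compared directly with that of A_43_P13939. They differed by between -0.004 and 0.03, with SEs from 0.10 to 0.29. By limma over 6993 such pairs of all genes, 0 of 5 passed (smallest adjusted p = 0.978), where 0.0429% of all pairs did. At unadjusted p under 0.05 there were 0 of 5, where 7.59% of all pairs were.

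**Figure D4:**
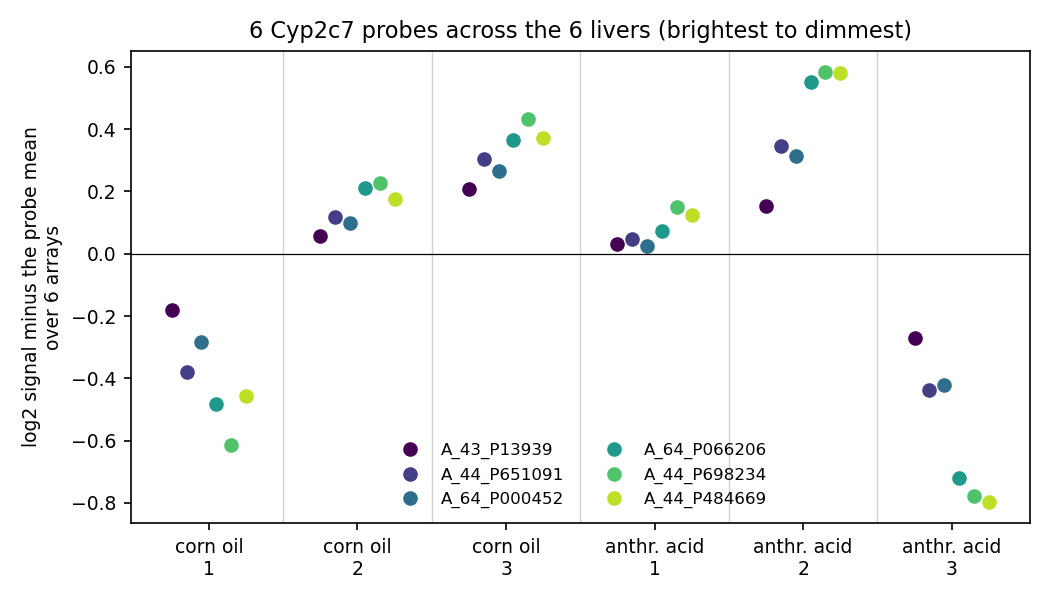
Log2 signal of each of the 6 Cyp2c7 probes minus that probe's mean over the 6 arrays, by liver. Corn oil replicate 1 and anthranilic acid replicate 3 are below 0 at all 6 probes, and the dimmer probes spread further than the brightest.

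Cyp2c6v1 was read by 2 probes. The brighter, A_44_P133140, gave 269, 324 and 261 in corn oil livers and 339, 330 and 182 in treated livers. Treated replicates 1 and 2 were the highest of the 6, and treated replicate 3 was the lowest. The difference was -0.05 (SE 0.26; 95% interval -0.67 to 0.57; limma adjusted p = 0.946) and -0.07 at the other probe. Within slide 1, which leaves out treated replicate 3, these became 0.24 and 0.20 (limma adjusted p = 0.550 and 0.571). The shifts of the 2 probes differed by -0.02 (SE 0.06; limma adjusted p = 0.973).

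Cyp2c23 varied least. It read 432, 462 and 439 in corn oil livers and 406, 466 and 420 in treated livers, a 1.15-fold range over all 6. The difference was -0.05 (SE 0.09; 95% interval -0.27 to 0.17; limma adjusted p = 0.859), and its pooled SD of 0.0816 was above that of 14.6% of tested probes. The intervals show what 3 arrays per group could resolve. That of Cyp2c23 reaches down to -0.27, that of Cyp2c11 to -0.87 and that of Cyp2c12 to -2.44. At the Cyp2c7 probe A_44_P698234 it ran from -1.04 to 0.98.

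Other genes known for sex-dependent expression in rat liver were read from the same fit. Of 9 male-predominant genes outside the family, 7 were below 0, with a median of -0.67 beside 0.0085 over all genes. None passed (0 of 9 by limma, smallest adjusted p = 0.107), and by representatives 0 of all 10257 tested genes did. An unadjusted p under 0.05 was found for 3, against 11.6% of all genes. The list's median was -0.25 without anthranilic acid replicate 2 and -0.62 within slide 1. Mup4, a major urinary protein gene, read 307, 304 and 313 in corn oil livers and 202, 198 and 178 in treated livers. Its groups did not overlap, which held for 4 of the 9 genes of this list and for 19.8% of all genes. Mup4 stood at -0.68 (SE 0.09, limma adjusted p = 0.107). Under 2 alternatives it passed in limma. Its adjusted p was 0.0498 after normexp background correction of the median spot signal and 0.0286 with a trended robust variance. These settings passed 50 and 45 of all 33428 tested probes, where the main fit passed 11. Under every other alternative Mup4 did not pass, with a limma adjusted p of up to 0.344 (replicate block). Cyp3a2, a male-predominant testosterone hydroxylase, read 568, 622 and 445 against 434, 240 and 375, at -0.67 (SE 0.25; limma adjusted p = 0.387) and at -0.42 without anthranilic acid replicate 2. Bcl6, a transcriptional repressor, read 6.90, 4.63 and 22.6 against 2.94, 3.26 and 3.70, at -1.45 (SE 0.56; limma adjusted p = 0.392). Corn oil replicate 3 stood far above the other Bcl6 values, and without it the difference was -0.78.

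Of 8 female-predominant genes outside the family, 5 were tested and all 5 were above 0, with a median of 0.29. None passed the threshold (0 of 5 by limma, 0 at unadjusted p under 0.05), where 0% and 11.6% of all genes did. Srd5a1, a steroid reductase, was at 0.62 (SE 0.58; limma adjusted p = 0.679) and the hydroxysteroid sulfotransferase Sult2a1 at 0.29 (SE 0.32; limma adjusted p = 0.724). The groups overlapped at all 5 genes, whereas they did not for 19.8% of all genes. Cyp2c12, female-specific itself, differed in the other direction. The list's median was 0.65 within slide 1, and 0.03 without anthranilic acid replicate 2.

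Genes of growth hormone signalling had a median of -0.02, with 4 of 9 above 0. By limma 0 of 9 passed the threshold and 0 had an unadjusted p under 0.05, where 0% and 11.6% of all genes did. Socs2, a feedback inhibitor induced by growth hormone, read 3.06, 3.74 and 1.98 in corn oil livers and 4.25, 4.20 and 3.98 in treated livers. It stood at 0.55 (SE 0.23; limma adjusted p = 0.409). Its groups did not overlap, which held for 1 of the 9 genes of this list and for 19.8% of all genes. The kinase Jak2 was at -0.13. Stat5b, named because its motif was searched and after its value was seen, was at 0.11 (limma adjusted p = 0.750). Regulators of Cyp2c transcription had a median of -0.04. Here too 0 of 9 passed by limma and 0 had an unadjusted p under 0.05, beside the same 0% and 11.6% of all genes. The forkhead factor Foxa2 was at 0.63 (SE 0.26; limma adjusted p = 0.410), and the pregnane X receptor Nr1i2 at -0.18. Onecut1 (HNF6), of the female-predominant list and likewise named after its value was seen, was at 0.21 (limma adjusted p = 0.875).

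**Figure D5:**
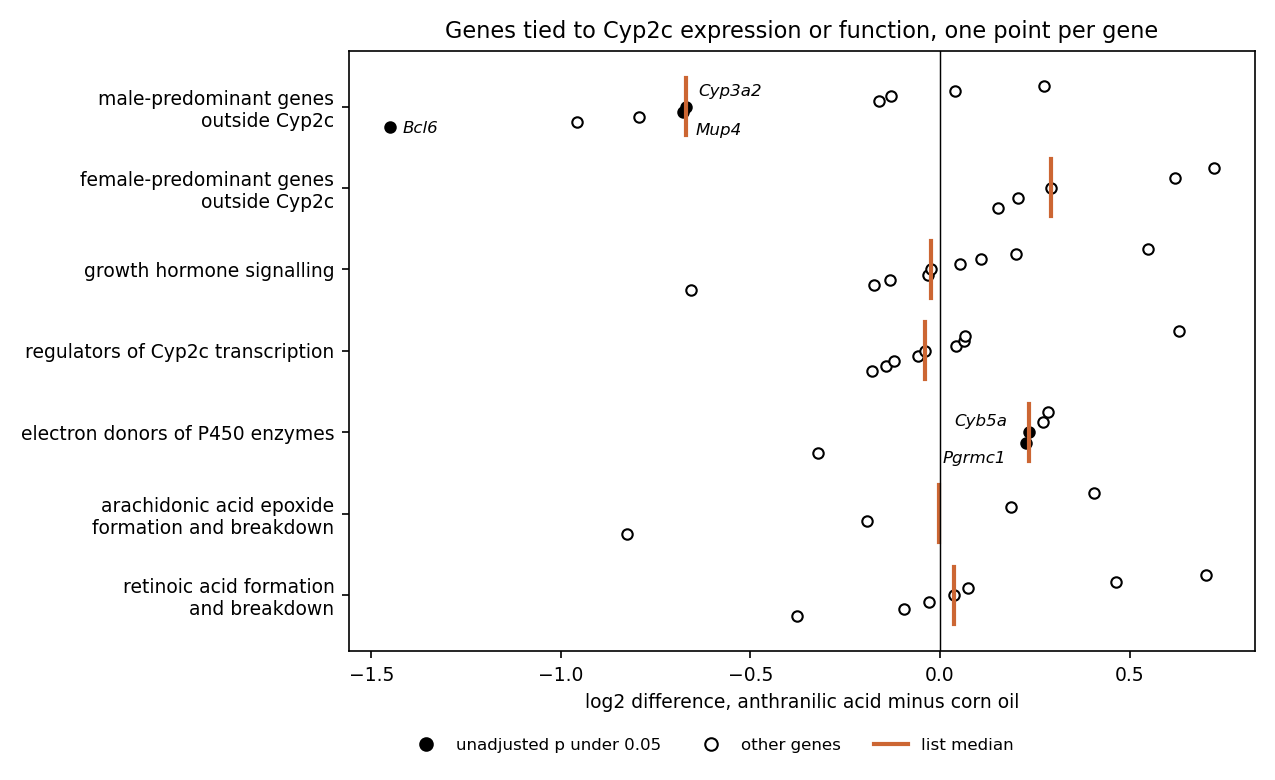
Log2 difference, anthranilic acid minus corn oil, for each tested gene of 7 lists tied to Cyp2c expression or function, 1 point per gene, with the list median as a vertical bar. Filled points have an unadjusted p under 0.05 in limma. None passed after adjustment, nor did any of all 10257 tested genes. The male-predominant list has its median at -0.67 and the female-predominant list at 0.29.

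Electron donors and partners of P450 enzymes had a median of 0.24, with 4 of 5 above 0. By limma 0 of 5 passed the threshold, beside 0% of all genes, and 2 had an unadjusted p under 0.05, beside 11.6%. The cytochrome b5 gene Cyb5a was at 0.24 (SE 0.09, limma adjusted p = 0.401) and the haem-binding partner Pgrmc1 at 0.23 (SE 0.09, limma adjusted p = 0.394). Groups did not overlap at these 2 of the 5 genes, as for 19.8% of all genes. Por, the P450 reductase, was at -0.32 (limma adjusted p = 0.598), and is named here after its value was seen. Genes that form or break down arachidonic acid epoxides had a median of -0.0027 over 4 tested genes, with Cyp2j3 at -0.19 and the epoxide hydrolase Ephx1 at 0.41. Those of retinoic acid formation and breakdown had a median of 0.04 over 7, with the retinal dehydrogenase Aldh1a1 at 0.70 (SE 0.41). In these last 2 lists 0 of 11 genes passed by limma, beside 0% of all genes. At an unadjusted p under 0.05 there were 0 of 11, against 11.6% of all genes.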

How the data were processed

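Per the file headers, Agilent Feature Extraction 10.7.1.1 produced the deposited intensity of each spot and subtracted background; the submitters' processing notes name version 10.7. No step in these files made arrays comparable. A second table from the authors holds a ratio, the processed signal over 1 value per array that was within 0.0354% to 0.126% of its 75th percentile, with column medians of 0.0887 to 0.0976; no source used here says why. It served as an alternative.

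From the deposited intensity, log2 of the processed signal was taken, less the log2 of the 75th percentile of non-control probes. Control spots and 14 outlier spots of 369942 were left out. A probe entered the test when all 3 arrays of 1 group or both read it well above background, with at least 2 unflagged spots per group. Groups were compared with limma 3.58.1 (R 4.3.3; lmFit, eBayes; 4 residual and 2.30 prior degrees of freedom), two-sided, with Benjamini-Hochberg adjustment over all tested probes at 0.05. Probes were named through the RefSeq table of GRCr8 (44.5% had a symbol); the headers name rn4, so the coordinates printed are RefSeq's. Promoters were aligned with Biopython 1.88. The number of arrays limits the precision. Alternatives changed background correction, scaling, probe filter, variance model, slide, replicate number and each array.

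Members and lists were chosen with earlier results of these data known. The text names every family probe, and of each list the genes with an unadjusted p under 0.05 and at least the 2 with the smallest p, except 1 gene that is not reported here; the 5 genes most like Cyp2c11 and Cyp2c7 were taken by Pearson's r. Replicates are different rats. The labels give no pairing by replicate number, and the main fit used none. Deviations of same-numbered arrays correlated at 0.07, -0.05 and -0.04, and those of differently numbered arrays at -0.13 to 0.16. With 3 arrays per group, such values cannot settle whether the rats were paired.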

Additional observations from a re-analysis of the deposited data

How the results depend on the processing

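The count of Cyp2c probes past the threshold was 0 in each of the 17 alternatives (9 other processing choices or fits, blocks for slide and replicate number, and fits without each array in turn). Over all tested probes the count of 11 became 50 with normexp (run on median spot and background signals, so the signal measure changed too), 21 with median scaling, 45 with trended robust variance, 18 with array weights, 6 with the slide as a block, and 2 with no filter, with the filter on all 6 arrays and with the replicate block; without 1 replicate it ranged from 4 to 21. Of pairs of probes of 1 gene, 3 passed; this was 1 with the filter on all 6 arrays and 1 with the replicate block, 9 with the slide as a block, and 1 to 9 without 1 replicate. Blocks and left-out replicates for the pairs were chosen after seeing the data. The labels give no pairing by replicate number. Signs turned with the slide as a block at Cyp2c6v1 (0.24 and 0.20) and Cyp2c7 (0.063, 0.14, 0.18, 0.28, 0.32 and 0.35); the array on slide 2 is left without weight there, so this equals leaving out anthranilic acid replicate 3. Values close to 0 also turned for Cyp2c23 (0.0047, median scaling), A_64_P066206 (0.0036, normexp), A_44_P698234 (0.022, median scaling; 0.019, array weights) and A_44_P651091 (0.0028, quantile; 0.022, median scaling; 0.0049, array weights); the cause was not tested. Without 1 replicate the difference ranged from -0.43 to 0.033 for Cyp2c11, and for Cyp2c6v1 from -0.21 to 0.24 (A_44_P133140) and -0.22 to 0.20 (A_64_P033170). For Cyp2c7 it ranged from -0.16 to 0.063 (A_43_P13939), -0.37 to 0.32 (A_44_P484669), -0.23 to 0.18 (A_44_P651091), -0.34 to 0.35 (A_44_P698234), -0.22 to 0.14 (A_64_P000452) and -0.35 to 0.28 (A_64_P066206). Cyp2c12 stayed between -1.72 and -0.89 there (limma adjusted p 0.315 to 0.612), and Cyp2c22 between -0.59 and -0.21 (limma adjusted p 0.403 to 0.763). All 13 probes stood well above background on all 6 arrays.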

Other observations

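Over the 6 livers and the 21 pairs of representatives, Pearson's r ran from -0.786 to 0.672, and 0 pairs passed after Benjamini-Hochberg adjustment over the 21, which with 6 livers does not show that the genes vary independently. The lowest value was that of Cyp2c11, the male-specific testosterone hydroxylase, with Cyp2c7, the female-predominant retinoic acid hydroxylase. There r was -0.786 (exact permutation p = 0.0653, adjusted p = 0.723). Spearman's rho was -0.829 (exact permutation p = 0.0583, adjusted p = 0.540, the smallest of the family but shared with other pairs). Without the 2 livers farthest from the median of Cyp2c11, r was -0.878, and within slide 1 it was -0.780 over 5 livers. The pair of Cyp2c12 and Cyp2c6v1 had the same rho and the same exact permutation p. With Cyp2c11, r was 0.255 for the female-specific Cyp2c12 and -0.0016 for the male-specific Cyp2c13. The highest value was that of the chromosomal neighbours Cyp2c6v1 and Cyp2c7, at 0.672 (exact permutation p = 0.153, adjusted p = 0.723), with a Spearman's rho of 0.257 (exact permutation p = 0.658). It was 0.224 without the 2 livers farthest from the median of Cyp2c6v1. Within slide 1, which leaves out only anthranilic acid replicate 3, it was 0.145, so the value of 0.672 depends on that liver. Other chromosomal neighbours had r below 0, at -0.398 for Cyp2c12 with Cyp2c13 and -0.351 for Cyp2c13 with Cyp2c22.

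Among 9831 genes outside the family that were well above background on all 6 arrays, those most like Cyp2c11 over the 6 livers were Gtf3c3 (r = 0.997), Sft2d2 (r = 0.992), Slc6a9 (r = 0.991), Retreg1 (r = 0.991) and Rdh16 (r = 0.990). Those most like Cyp2c7 were Mcu (r = 0.990), Scart1 (r = 0.987), Guca2b (r = 0.977), Ccl24 (r = 0.972) and Btg1b (r = 0.965). With 6 livers and so many genes ranked, such values describe these arrays only.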
